A study of Mus musculus with 12 samples.

Results

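The epidermal growth factor (EGF) receptor family and its ligands were followed as 10 transcripts, 3 receptors and 7 ligands, chosen by gene symbol. All 10 were among the 20432 genes measured in 6 mouse pancreatic ductal adenocarcinoma cell lines, and 9 were abundant enough to be tested. Epgn was not. The lines carry the numbers 52205, 52419, 52424, 53105, 53369 and 53371. The Cre group comprised the 6 lines after infection with pBabe-Cre-puro retrovirus, selected in puromycin at 2, 4 and 7 µg/ml, and labelled as JAK1 knockout. The parental group comprised the same 6 lines uninfected and labelled wild type. All were grown in DMEM with serum, each line and condition gave 1 poly(A)-selected library, and the driver alleles of the tumours are not named in the labels. No empty-vector cultures were analysed here, and the loss of JAK1 therefore cannot be told apart from infection, puromycin selection or time in culture. In bulk cultures, fewer cells making a transcript and less of it per cell cannot be told apart either.

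The receptors are tyrosine kinases of the cell surface. EGFR binds soluble ligands of the EGF family, ERBB3 has little kinase activity of its own and binds neuregulins, and ERBB2 has no known ligand and acts as the partner of the others. The ligands are made as membrane proteins and are released by proteases of the ADAM family. In the pancreas, EGFR signalling is known for its part in the conversion of acinar cells to duct-like cells and in RAS-driven tumours, and several of the ligand genes are themselves induced by RAS and MAP kinase signalling.

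The libraries held 11.5 to 18.04 M reads in genes (M, 1e+06 reads), and levels are normalised counts per 1e+06 reads (CPM). Jak1, the targeted gene (GRCm38 chromosome 4, 101151974 to 101265282), was at 104 to 234 CPM in the Cre libraries and 125 to 207 CPM in the parental libraries, with a log2 change of -0.04 (SE 0.09, limma adjusted p = 0.838). The labels do not give the exons that Cre removes, so the total of the gene does not check the deletion. All 10 ductal epithelial markers were detected, though Esrp1 was at 0 in 3 of 12 libraries. Their summed level was 360 to 13220 CPM in Cre and 445 to 13086 CPM in parental libraries, lowest in both libraries of 52419. The epithelial cadherin Cdh1 was at 0.615 CPM in Cre and 0.372 CPM in parental 52419, so this defining epithelial transcript was close to absent from that line. Krt8, Epcam and Cldn4 were also under 1 CPM in both libraries of 52419. Most of the sum in that line came from Krt18 (188 CPM in Cre, 253 CPM in parental) and Sox9 (149 CPM in Cre, 171 CPM in parental). The leukocyte markers summed to 1.90 to 9.59 CPM in Cre and 1.99 to 23.5 CPM in parental libraries, and the endothelial markers to at most 5.32 CPM in Cre and 7.01 CPM in parental libraries. Most of the leukocyte sum was Cd68, at 1.48 to 9.23 CPM in Cre and 1.88 to 23.1 CPM in parental libraries. The macrophage gene Adgre1 was at 0 in 11 of 12 libraries. The 7 fibroblast markers found summed to 8.11 to 854 CPM in Cre and 9.53 to 1332 CPM in parental libraries, highest in 53369. Most of the sum in 53369 was Col1a2 (553 CPM in Cre, 831 CPM in parental), and Pdgfra, Pdgfrb and Col1a1 were also highest there. In that line Fap was at 0, Dcn at 1.21 CPM in Cre and 3.44 CPM in parental, and Postn at 2.21 and 1.99 CPM.

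Of the 7 ligand genes, 4 lie next to each other on chromosome 5 between 91027517 and 91402994 (GRCm38), a span of 375 kb, in the order Epgn, Ereg, Areg and Btc. The only other gene of the table inside this span, Gm19619, had at most 6 reads in any library. Areg, Btc and Egfr, the gene of the receptor that both ligands bind, had the 3 lowest estimates with Cre of the members tested, and the sequences before their transcription starts are shown for that reason. Each holds the 250 bases upstream of the start, from RefSeq on GRCm38.p6, 5′ to 3′ on the strand of the gene, and capitals mark a match to a motif named after the sequences. Areg is at chr5:91139349-91139598 on the plus strand, Btc at chr5:91402995-91403244 on the minus strand, and Egfr at chr11:16751953-16752202 on the plus strand.
Areg: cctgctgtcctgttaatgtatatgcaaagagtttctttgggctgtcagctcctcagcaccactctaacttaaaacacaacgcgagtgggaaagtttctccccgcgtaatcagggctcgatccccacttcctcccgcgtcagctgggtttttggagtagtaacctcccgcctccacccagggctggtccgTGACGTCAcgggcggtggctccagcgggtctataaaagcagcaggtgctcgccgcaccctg
Btc: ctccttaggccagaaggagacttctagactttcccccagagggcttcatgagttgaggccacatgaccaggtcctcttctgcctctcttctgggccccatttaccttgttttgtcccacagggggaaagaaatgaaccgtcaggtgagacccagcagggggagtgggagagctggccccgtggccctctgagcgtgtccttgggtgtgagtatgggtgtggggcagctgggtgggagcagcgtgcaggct
Egfr: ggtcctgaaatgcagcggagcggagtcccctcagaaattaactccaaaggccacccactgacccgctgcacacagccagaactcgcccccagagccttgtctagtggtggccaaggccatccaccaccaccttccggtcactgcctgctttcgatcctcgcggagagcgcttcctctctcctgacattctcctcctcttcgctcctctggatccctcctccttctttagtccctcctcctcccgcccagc
The capitals in the Areg sequence are TGACGTCA, the cyclic AMP response element, which starts 61 bases before the transcription start. This element occurred in 1.55% of 32851 mouse promoter windows of the same length. The STAT motif TTCNNNGAA (7.02% of windows), the AP-1 motif TGANTCA (6.75%) and the C/EBP motif TTNCNNAA (36.8%) were searched on both strands as well. The windows of Areg, Btc and Egfr held none of these 3. Overlapping matches were each counted, a match reading the same on both strands was counted once, and no matches overlapped in the members' windows. Windows were also available for Erbb2, which held 1 C/EBP match, and for Tgfa and Epgn, which held no match to the 4 motifs. Such matches describe letters and not bound sites.

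Cre and parental cultures were set side by side to ask which transcripts differ after JAK1 is targeted in established tumour cells. No member passed the test. Of the 9 members tested, 0 had a limma adjusted p under 0.05 (Benjamini-Hochberg over 12734 genes), where the background was 0.0236% called, all of them lower. At an unadjusted p under 0.05, 4 members were lower (Areg, Btc, Hbegf and Egfr) and 0 higher, against 8.18% lower and 6.96% higher among all genes tested. The edgeR quasi-likelihood test called 0 members, with a background of 0.0393% of genes lower and 0 genes higher. DESeq2 called 1 member, Areg, as lower, with a background of 1.63% lower and 0.487% higher. The median log2 change was -0.30 for the 9 members and -0.0002 for all genes tested, with 6 estimates below 0 and 3 above, where 50.1% of all genes had an estimate below 0. Since the members were chosen with earlier results known, these counts describe them and are no test of the family.

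**Figure D1:**
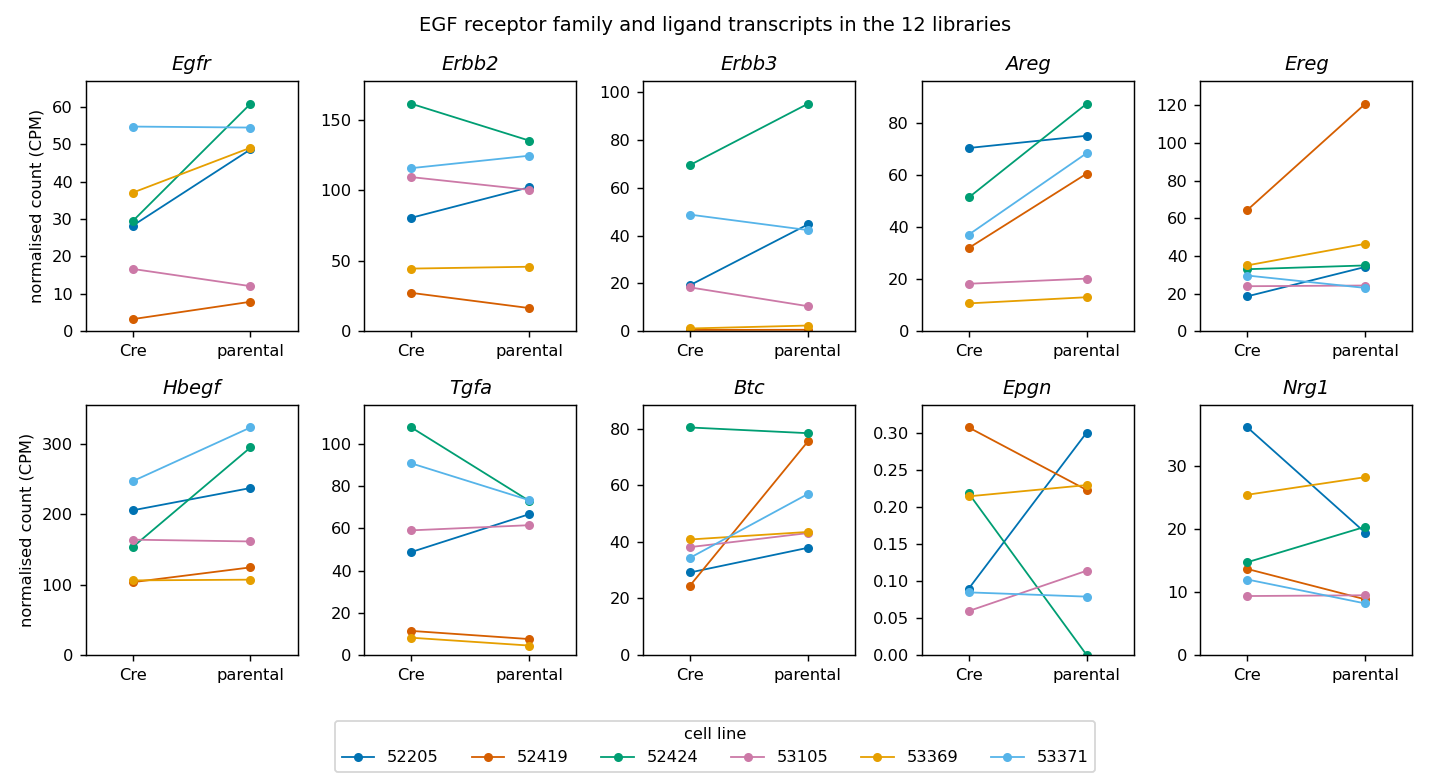
Normalised count (CPM, linear axis from 0) of each of the 10 transcripts in the Cre and parental library of each cell line, 1 colour per line, with a line joining the pair. Areg is lower with Cre in all 6 lines, whereas Erbb2 is lower in 3 and higher in 3, and the distance between lines is larger than the step between Cre and parental for most transcripts.

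Among the ligands, Areg came closest to the threshold. It encodes amphiregulin, a heparin-binding ligand of EGFR. Areg was at 10.7 CPM at the lowest, 34.6 at the median and 70.5 at the highest in the Cre libraries, against 13.1, 64.6 and 87.6 CPM in the parental libraries. The 2 groups overlapped, but within every line the Cre library was the lower of the pair, which held for 4.56% of all genes tested. No member was higher with Cre in all 6 pairs, which held for 4.11% of genes. The step was large in 52419 (32.0 CPM with Cre, 60.6 CPM parental), in 53371 (37.2 CPM with Cre, 68.5 CPM parental) and in 52424 (51.5 CPM with Cre, 87.6 CPM parental). In the other lines it was small, with log2 changes of -0.09 in 52205, -0.14 in 53105 and -0.28 in 53369. The estimate over the lines was -0.51 (SE 0.13, 95% interval -0.81 to -0.21), or 29.7% lower, with a limma adjusted p of 0.203. DESeq2 gave -0.53 (SE 0.15) with adjusted p = 0.0329. No line left out moved the estimate outside -0.59 to -0.43.

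In the chromosome 5 cluster, line 52419 had the lowest log2 change for Areg (-0.91), Btc and Ereg alike. These genes differed in which of the other lines were lower. Btc, which encodes betacellulin, a ligand of EGFR and ERBB4, was at 24.5 CPM at the lowest, 36.2 at the median and 80.4 at the highest in Cre libraries, against 37.8, 50.2 and 78.3 CPM in parental libraries. The groups overlapped, and 5 of 6 pairs were lower, a count that 17.8% of all genes reached. Line 52419 stood lowest with a log2 change of -1.60 (24.5 CPM with Cre, 75.4 CPM parental), followed by 53371 with -0.72. In 52424 Btc was at 80.4 CPM with Cre and 78.3 CPM parental, where the log2 change of Areg was -0.76. The estimate for Btc was -0.49 (SE 0.19, limma adjusted p = 0.296) and -0.26 without 52419.

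Ereg encodes epiregulin, which binds EGFR and ERBB4. It was at 18.6 CPM at the lowest, 31.3 at the median and 64.5 at the highest in Cre libraries, against 23.0, 34.6 and 121 CPM in parental libraries. The highest value of both groups belonged to 52419, and the groups overlapped. Its log2 change was -0.90 in 52419 and -0.86 in 52205, between -0.40 and -0.02 in 52424, 53105 and 53369, and 0.36 in 53371, a line in which Areg and Btc were lower. The estimate was -0.32 (SE 0.16, limma adjusted p = 0.384), and it was -0.20 without 52419 and -0.21 without 52205. Epgn, which encodes epigen, had at most 4 reads in any library, 13 reads in all over the 6 Cre libraries and 13 over the 6 parental libraries, so no difference was detectable at this depth.

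Hbegf (chromosome 18, 36504927 to 36515805) encodes heparin-binding EGF-like growth factor, a ligand of EGFR and ERBB4. It was at 104 CPM at the lowest, 159 at the median and 247 at the highest in Cre libraries, against 107, 200 and 324 CPM in parental libraries. In 52424 it was at 153 CPM with Cre and 295 CPM parental, a log2 change of -0.94, and in 53371 at 247 CPM with Cre and 324 CPM parental. Those pairs had the lowest log2 changes, and the other lines were between -0.27 and 0.02. The estimate was -0.30 (SE 0.12, limma adjusted p = 0.300), -0.17 without 52424 and -0.20 with library weights.

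Tgfa and Nrg1 had estimates above 0. Tgfa (chromosome 6, 86195038 to 86275744) encodes transforming growth factor alpha, an EGFR ligand. It was at 8.14 CPM at the lowest, 53.9 at the median and 108 at the highest in Cre libraries, against 4.44, 64.1 and 73.3 CPM in parental libraries. It was higher with Cre in 4 pairs (0.31 to 0.81) and lower in 52205 (-0.45) and 53105 (-0.06). The estimate was 0.29 (SE 0.16, limma adjusted p = 0.404), 0.44 without 52205, 0.19 without 53369 and 0.47 with library weights (limma adjusted p = 0.151). Nrg1 (chromosome 8, 31807452 to 32891609) encodes neuregulin 1, a ligand of ERBB3 and ERBB4. It was at 9.37 CPM at the lowest, 14.2 at the median and 36.2 at the highest in Cre libraries, against 8.19, 14.5 and 28.3 CPM in parental libraries. Line 52205 showed the largest step, with 36.2 CPM with Cre and 19.4 CPM parental, while 52424 was lower with Cre (14.8 CPM with Cre, 20.4 CPM parental). The estimate was 0.23 (SE 0.18, limma adjusted p = 0.553), 0.10 without 52205, 0.37 without 52424 and 0.15 with library weights.

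**Figure D2:**
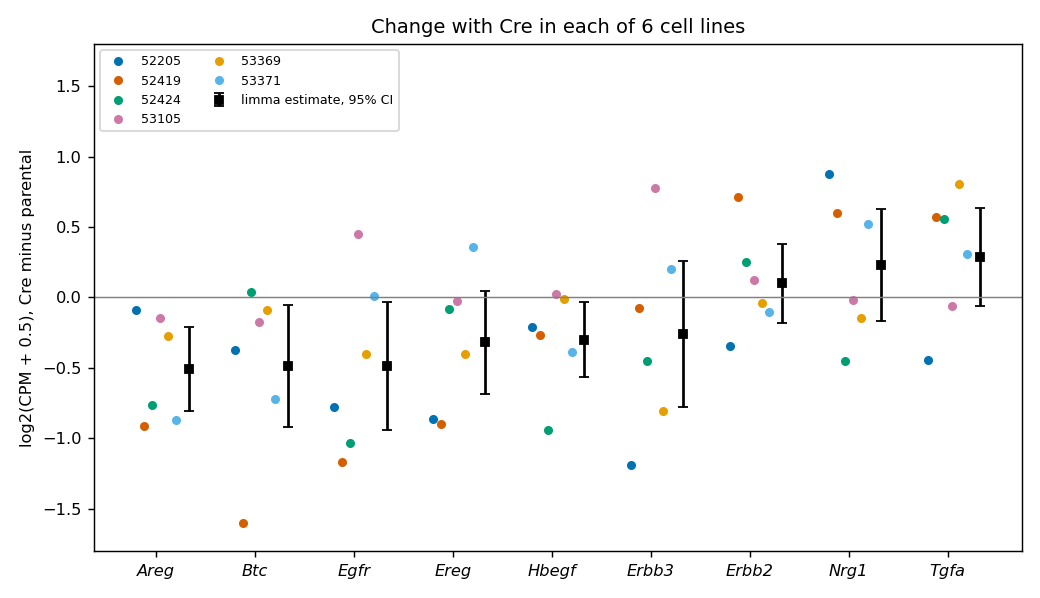
Cre minus parental on the log2(CPM + 0.5) scale for the 9 tested transcripts, with 1 coloured point per cell line and the limma estimate with its 95% confidence interval in black. All 6 points lie below 0 for Areg, and 1 line stands far below the others for Btc (52419, -1.60).

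Among the receptors, Egfr (chromosome 11, 16752203 to 16913907) was at 3.23 CPM at the lowest, 28.8 at the median and 54.8 at the highest in Cre libraries, against 7.88, 48.9 and 60.9 CPM in parental libraries. It was lower in 4 pairs, by log2 changes of -1.17 in 52419, -1.03 in 52424, -0.77 in 52205 and -0.40 in 53369. In 53371 it was at 54.8 CPM with Cre and 54.5 CPM parental, and in 53105 it was higher with Cre, at 16.7 CPM against 12.1 CPM parental. The estimate was -0.49 (SE 0.20, 95% interval -0.94 to -0.03, limma adjusted p = 0.312). The groups overlapped. Lines 52419 and 52424 had a large step in both Egfr and Areg. Line 53371 had a large step in Areg and almost none in Egfr, and 52205 the reverse.

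Erbb3 (chromosome 10, 128567523 to 128589635) was at 0.538 CPM at the lowest, 18.8 at the median and 69.5 at the highest in Cre libraries, against 0.595, 26.4 and 95.1 CPM in parental libraries. Lines differed in direction, from -1.19 in 52205 to 0.78 in 53105. The estimate was -0.26 (SE 0.23, limma adjusted p = 0.614), -0.07 without 52205, -0.15 without 53369 and -0.46 without 53105. In 52419 it rested on 7 reads with Cre and 8 reads parental, and in 53369 on 16 reads with Cre and 31 reads parental. Erbb2 (chromosome 11, 98412484 to 98437716) was at 27.2 CPM at the lowest, 94.9 at the median and 161 at the highest in Cre libraries, against 16.4, 101 and 135 CPM in parental libraries. Its estimate was 0.10 (SE 0.12, 95% interval -0.18 to 0.38, limma adjusted p = 0.723), with 3 pairs lower and 3 higher, 0.19 without 52205 and -0.02 without 52419.

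Most members, like most genes tested, differed between cell lines. A moderated F test over the 6 lines in the same limma fit called 8 of the 9 members (all but Btc), where the background was 71.1% of all genes called. Each line has 1 Cre and 1 parental library, so this test sets the lines against the unevenness of the Cre change and says nothing of other cultures of a line. Ranges between the highest and lowest line are given from means of log2(CPM + 0.5), on which low values are compressed. Erbb3 had the widest range of the members, 76.8-fold (adjusted p = 5.67e-06), wider than 98.4% of genes tested, whose median range was 1.99-fold. Its size depends on the pseudocount, since the lowest line had 7 and 8 reads. Tgfa ranged 13.7-fold (adjusted p = 6.47e-06), Egfr 9.87-fold (adjusted p = 0.000190), Erbb2 6.85-fold (adjusted p = 2.75e-05) and Areg 5.94-fold (adjusted p = 4.73e-05). Ereg ranged 3.61-fold (adjusted p = 0.00221), Nrg1 2.75-fold (adjusted p = 0.00426), Hbegf 2.65-fold (adjusted p = 0.00126) and Btc 2.37-fold (adjusted p = 0.0757). Without 52419 Ereg was no longer called (adjusted p = 0.133) and Btc was (adjusted p = 0.00631).

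The order of the lines differed between members. Erbb3 increased over the lines in the order 52419, 53369, 53105, 52205, 53371 and 52424, and of neighbouring lines only 52205 and 53371 overlapped. Erbb2 followed 52419, 53369, 52205, 53105, 53371 and 52424, with an overlap only between 52205 and 53105. For Tgfa, 53369 and 52419 overlapped at the bottom and lay apart from the other 4 lines, which started with 52205 and 53105, overlapping each other, and ended with 53371 and 52424, overlapping each other. Egfr was lowest in 52419 and next in 53105, both apart from the rest, and its mean was highest in 53371, within the range of 52424. Areg was lowest in 53369 and 53105, apart from each other and from the rest, with each neighbour overlapping the next from 52419 through 53371 and 52424 to 52205. Hbegf was lowest in 53369 and 52419, which overlapped, and its mean was highest in 53371, whose range overlapped that of 52424. Ereg was highest in 52419 and lowest in 53105, 52205 and 53371, where neighbours overlapped. Nrg1 was highest in 53369, 52205 and 52424, where neighbours overlapped, and Btc in 52424, apart from the rest.

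In the 2 lines with the least Erbb3 and Tgfa, the epithelial cadherin transcript was also lowest. Cdh1 was at 0.615 CPM with Cre and 0.372 CPM parental in 52419, and at 36.4 CPM with Cre and 17.5 CPM parental in 53369. In the other 4 lines it was between 425 and 675 CPM with Cre and between 272 and 805 CPM parental. The keratins Krt7, Krt8, Krt18 and Krt19 were also lowest in 52419 and 53369. Epcam, Muc1, Cldn4 and Esrp1 were low there too, but also in 53105. Epcam was at 2.14 CPM with Cre and 1.99 CPM parental in 53105, against 127 and 366 CPM in 52424. Sox9 went the other way, at 149 CPM with Cre and 171 CPM parental in 52419, and 17.9 and 55.9 CPM in 52205. Erbb3 was at 0.538 to 1.14 CPM with Cre and 0.595 to 2.37 CPM parental in 52419 and 53369, and at 18.3 CPM or more with Cre and 10.5 CPM or more parental in the others. Ereg was highest in 52419, at 64.5 CPM with Cre and 121 CPM parental. In 53369 it was at 35.0 CPM with Cre and 46.4 CPM parental, and the Cre value was close to that of parental 52424 (35.0 CPM). The part of the epithelial state in these levels was not tested, and the lines fall into separate clusters, so no correlation is given.

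**Figure D3:**
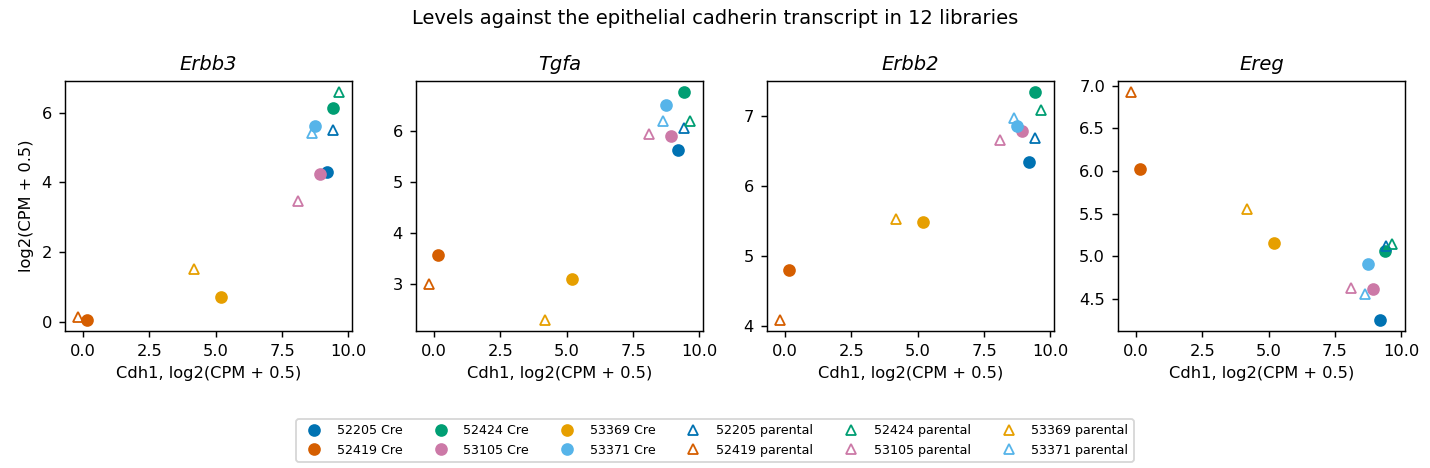
Level of Erbb3, Tgfa, Erbb2 and Ereg against Cdh1 in the 12 libraries, both axes in log2(CPM + 0.5), 1 colour per line, filled circles for Cre and open triangles for parental. The libraries of 52419 and 53369 lie at the left, low in Erbb3, Tgfa and Erbb2, and Ereg is highest in 52419.

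Per length of exon, Hbegf and Areg made up most of the ligand transcripts. Hbegf was at 33.8 ± 11.6 CPM per kb in Cre and 43.1 ± 18.8 in parental libraries, and Areg at 30.2 ± 18.03 in Cre and 44.6 ± 25.1 in parental libraries (SD, n = 6 each). Hbegf held 37.6% ± 8.36 of the summed ligand level in Cre and 36.3% ± 8.48 in parental libraries, and Areg 30.8% ± 11.3 in Cre and 34.0% ± 10.9 in parental libraries. Each of the 2 was the leading ligand in 3 Cre and 3 parental libraries. With the length of the longest transcript in place of all exons of a gene, Hbegf held 47.3% in Cre and 46.3% in parental libraries and led in 6 Cre and 5 parental libraries, so which of the 2 leads depends on the length used. Btc held 10.6% ± 4.87 in Cre and 11.2% ± 3.89 in parental libraries, and Nrg1 2.15% ± 1.43 in Cre and 1.61% ± 1.58 in parental libraries. Ereg held 21.7% in Cre and 23.7% in parental libraries at its highest.

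The summed ligand level per length was 91.6 ± 29.5 CPM per kb in Cre and 120 ± 45.0 in parental libraries (SD, n = 6 each). It was the lower of the pair with Cre in all 6 lines, by log2 ratios from -0.05 in 53105 to -0.78 in 52419, a description of 7 chosen genes with no test. The summed receptor level was 24.1 ± 14.6 CPM per kb in Cre and 25.6 ± 15.7 in parental libraries, with 4 lines lower and 2 higher. Erbb2 was the leading receptor in all 12 libraries under both lengths, with 75.3% ± 10.8 of the receptor level in Cre and 69.4% ± 11.9 in parental libraries. Egfr held 11.6% ± 8.50 in Cre and 15.5% ± 9.14 in parental libraries, and Erbb3 13.2% ± 10.3 in Cre and 15.0% ± 12.6 in parental libraries.

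**Figure D4:**
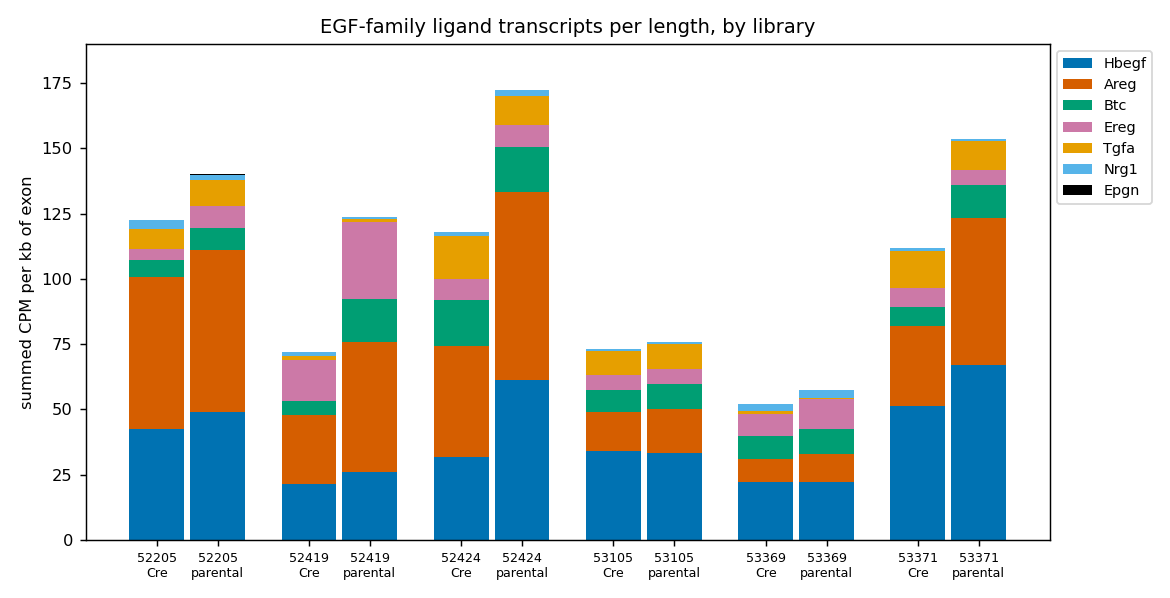
Stacked level of the 7 ligand transcripts in CPM per kb of exon (linear axis from 0), with the Cre bar left of the parental bar for each cell line. Hbegf and Areg form most of every bar, the Ereg part is largest in 52419, and each Cre bar is shorter than its parental bar, least so in 53105.

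Of the other members of the family, Erbb4 and Nrg3 were not found among the named genes measured, so no level is given. Egf was at 1.02 ± 0.249 CPM in Cre and 0.892 ± 0.231 CPM in parental libraries, and Nrg4 at 1.47 ± 1.62 CPM in Cre and 0.708 ± 0.730 CPM in parental libraries (SD, n = 6 each). Neither was tested. Nrg2, another neuregulin, was at 4.34 ± 3.79 CPM in Cre and 3.93 ± 4.62 CPM in parental libraries, reaching 11.1 CPM in Cre and 12.1 CPM in parental libraries at its highest. Its estimate was 0.41 (limma adjusted p = 0.344), and it ranged from 0.61 with a pseudocount of 0.1 to 0.22 with a pseudocount of 2.

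Of 11 proteases and cofactors that release the ligands, 9 had an estimate below 0 and 2 above, with a median log2 change of -0.17. Limma called 0, edgeR called 0 and DESeq2 called 1 (Rhbdf1), where DESeq2 called 1.63% of all genes lower. At an unadjusted p under 0.05, 2 were lower and 0 higher, where 8.18% of all genes were lower. Those 2 were the iRhom genes, whose proteins carry the sheddase ADAM17 to the cell surface. Rhbdf1 was at 50.7 ± 9.83 CPM in Cre and 64.0 ± 10.0 CPM in parental libraries, an estimate of -0.34 (limma adjusted p = 0.177). Rhbdf2 was at 37.0 ± 15.9 CPM in Cre and 51.7 ± 28.6 CPM in parental libraries, an estimate of -0.40 (limma adjusted p = 0.203). Both were the lower of the pair in 6 of 6 lines (SD, n = 6 each), as were 4.56% of all genes. The main sheddase gene, Adam17, was at 86.0 ± 9.44 CPM in Cre and 87.1 ± 14.7 CPM in parental libraries, an estimate of -0.01 (limma adjusted p = 0.972). Adam10 was at 191 ± 47.8 CPM in Cre and 200 ± 42.3 CPM in parental libraries, an estimate of -0.07 (limma adjusted p = 0.688). Adam19 had an estimate of -0.31 (limma adjusted p = 0.533), -0.19 without 52419, -0.15 without 53371, and from -0.54 to -0.17 with pseudocounts from 0.1 to 2.

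Of 19 inhibitors and turnover factors of the receptors, 15 had an estimate below 0 and 4 above, with a median of -0.14. Limma and edgeR called 0 and DESeq2 called 2 (Lrig1 and Spry4), where DESeq2 called 1.63% of all genes lower. At the unadjusted threshold 6 were lower and 0 higher, where 8.18% of all genes were lower and 6.96% higher, and 50.1% of all estimates were below 0. Spry4, a feedback inhibitor of receptor tyrosine kinase signalling, was at 57.1 ± 23.3 CPM in Cre and 80.8 ± 41.5 CPM in parental libraries, an estimate of -0.46 (limma adjusted p = 0.185). Lrig1, a membrane protein that promotes receptor degradation, was at 115 ± 64.4 CPM in Cre and 138 ± 83.4 CPM in parental libraries, an estimate of -0.25 (limma adjusted p = 0.196). Cblb, a ubiquitin ligase of activated receptors, was at 28.9 ± 5.39 CPM in Cre and 39.4 ± 12.9 CPM in parental libraries, an estimate of -0.40 (limma adjusted p = 0.204). Each of the 3 was the lower of the pair in 6 of 6 lines, as were 4.56% of all genes. The other 3 at that level were Errfi1 (-0.36), Dusp6 (-0.28) and Spry2 (-0.20), which are feedback genes of the pathway and are named because of their values.

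The 19 adaptors and effectors were divided, with 10 estimates below 0 and 9 above and a median of -0.04. Limma, edgeR and DESeq2 called 0. At an unadjusted p under 0.05, 2 were lower and 0 higher, a share near the 8.18% of all genes that were lower. Eps15, an endocytic adaptor, had an estimate of -0.18 (limma adjusted p = 0.295), Nck2, an SH2 and SH3 adaptor, -0.24 (limma adjusted p = 0.329), or -0.13 without 53371, and Grb2, the adaptor that links receptors to RAS activation, -0.09 (limma adjusted p = 0.502), or -0.06 with library weights.

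Transcripts of proliferation markers were read beside these values, with no direct measure of growth. All 8 proliferation markers had an estimate above 0, with a median of 0.68, where 50.1% of all genes had an estimate below 0. Limma with Benjamini-Hochberg adjustment called 0 of the 8, where 0.0236% of all genes were called. Their summed level was 1272 to 2679 CPM in Cre and 318 to 2126 CPM in parental libraries. It was higher with Cre in every line but 53105 (1272 CPM with Cre, 1352 CPM parental). The widest step was in 53371 (1645 CPM with Cre, 318 CPM parental), whose parental library had the lowest sum. The median of 0.68 includes that pair, and no median without it is given. In line 53371 Areg, Btc and Hbegf were lower with Cre, and Ereg, Tgfa and Nrg1 higher. The part of proliferation in the ligand values was not tested.

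Over the 12 libraries, the genes with levels most like those of each member were named by Pearson's r of log2(CPM + 0.5). Since the libraries come as pairs from 6 lines that fall into separate clusters, these values only describe the line pattern. The genes most like Erbb3 included Ptprr (r = 0.99), a receptor tyrosine phosphatase gene, and Evpl (r = 0.98), which encodes envoplakin of the cornified envelope. Erbb2 was most like Pafah2 (r = 0.99), Nr3c2 (r = 0.98), the mineralocorticoid receptor gene, and Cgnl1 (r = 0.98), which encodes the junction protein paracingulin. Tgfa was most like Pls1 (r = 0.99), which encodes the actin bundler plastin 1, Dhx32 (r = 0.98) and Foxq1 (r = 0.98), a forkhead factor.

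The other members had looser matches. Areg was most like Gbp9 (r = 0.97), Tsg101 (r = 0.96) and Tmem60 (r = 0.95), and Hbegf most like Litaf (r = 0.97), 9430018G01Rik (r = 0.965) and Nfe2l3 (r = 0.96). Egfr was most like Flywch2 (r = 0.96), Ugp2 (r = 0.94) and Osbpl9 (r = 0.93), Nrg1 most like Phgdh (r = 0.93), Mecr (r = 0.93) and Ndufaf6 (r = 0.92), and Ereg most like Dennd1a, Mavs and Tbc1d1 (r = 0.93 each). Those of Ereg rested partly on 52419, without which r was 0.82 for Dennd1a, 0.75 for Mavs and 0.76 for Tbc1d1, and that of Osbpl9 with Egfr was 0.80. Btc had the weakest best matches, Tyk2 (r = 0.85), Rnf214 (r = 0.83) and Ifi207 (r = 0.83), and without 52424 these were 0.72, 0.73 and 0.65.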

How the data were processed

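Poly(A)-selected RNA of 6 parental and 6 Cre cultures was sequenced. Per the submitters' processing notes, FastQC 0.11.9, featureCounts and edgeR were used with the mouse builds GRCm38 and mm10, with no aligner named in the notes. The signal table deposited by the authors holds, for 20432 genes identified by Entrez numbers, read counts divided by a scaled library size. All values above 0 were whole multiples of 1 step per library (100% within 0.01), so counts were recovered by division, with 1 read worth 0.0569 to 0.0896 CPM. A second deposited table holds log2 values of 10903 genes and served as an alternative.

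Symbols came from RefSeq (GRCm38.p6) for 19448 genes and from GENCODE M21 for 11, and 973 stayed unnamed. The library protocol names no strand-marking step, so antisense overlaps cannot be told apart. Exon lengths were the union of all GENCODE M21 exons of a gene. The annotation the authors counted on may differ.

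The test covered the 12734 genes that reached 1 CPM in 6 or more libraries, CPM being taken relative to the column total. Values as log2(CPM + 0.5) were fitted with limma-trend (limma 3.58.1, R 4.3.3) with cell line as block, 2-sided, Benjamini-Hochberg adjusted over all genes tested, called under 0.05. For low genes the pseudocount shrinks the log2 change. The parental and Cre libraries of a line are an isogenic pair by the series design, and each of the 12 libraries correlated best with its own line (r of deviations across genes 0.73 to 0.95). With 1 library per line and condition, the p-values reflect agreement between lines and not between cultures of a line. The F test over lines used the same fit. Alternatives were edgeR 4.0.16 and DESeq2 1.42.0 on the recovered counts, other pseudocounts, filters, scalings and weights, and each line left out.

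The members and lists were chosen with earlier results of these data known. The named genes were all members, the 3 genes of each pathway list with the smallest p, and the 3 genes most correlated with each member. One gene that this rule names is not reported here. Others were named after their values were seen. Figures were drawn with matplotlib 3.10.9.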

Additional observations from a re-analysis of the deposited data

How the results depend on the processing

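No member was called under any limma setting or by edgeR, and DESeq2 called 1, Areg (-0.53, adjusted p = 0.0329). Erbb2 alone changed direction when a line was left out, with estimates from -0.022 (without 52419) to 0.19 (without 52205). Without the cell line as replicate block, limma called 0 genes and 0 members. The count of genes called lower, 3 in the fit reported, was 0 with no filter on low values, 33 with library weights, 5 with edgeR, 208 with DESeq2 and 0 to 5 with each line left out in turn (0 without 52419, 52424 or 53369, 1 without 53105, 5 without 52205). The count called higher, 0 in that fit, was 1 with library weights and 62 with DESeq2, and 0 with each line left out. DESeq2 was also the setting in which Rhbdf1 (-0.35, adjusted p = 0.0453), Lrig1 (-0.25, adjusted p = 0.0416) and Spry4 (-0.47, adjusted p = 0.0278) were called. The cause of these differences was not tested. The count of members called between lines stayed at 8 in each limma setting that keeps the block, though without 52419 the 8 included Btc and not Ereg. The ligand shares under the length of the longest transcript were chosen after seeing the data. Low read counts limit Epgn in every library and Erbb3 in 52419 and, to a lesser degree, in 53369 (16 reads with Cre, 31 reads parental).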
